A study of Mus musculus with 4 samples.

Results

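Alveolar macrophages are the resident phagocytes of the airspace, where they take up and break down surfactant and clear inhaled particles. Their identity rests on the cytokine GM-CSF, which is sensed through the CSF2 receptor and induces the lipid-activated nuclear receptor PPARγ. The genes described here were 10 such identity genes, Marco, Chil3, Ear1, Ear2, Car4, Pparg, Krt79, Cidec, Plet1 and Atp6v0d2, taken by name from the 25239 gene symbols counted. None of them is a T cell identity gene, and several are shared with other cells: Chil3 with monocytes and neutrophils, Ear1 and Ear2 with eosinophils, Car4 with lung capillary endothelium, Pparg and Cidec with adipocytes and Atp6v0d2 with osteoclasts.

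The libraries were RNA-Seq of CD4+ T cells isolated from the lungs of C57BL/6 male mice aged 8 to 10 weeks that carried tumors of LLC-OVA, a Lewis lung carcinoma line expressing ovalbumin, after intravenous injection of 500000 cells. Of the 4 libraries, 2 were labelled WT and 2 CD4/ALK4-KO (CD4CreERT2+/-/Acvr1bfl/fl), a line in which tamoxifen (75 mg/kg in each of 5 doses) activates a Cre recombinase driven by the Cd4 promoter and deletes Acvr1b, the gene of the activin receptor ALK4, so that macrophages were not the cells targeted. The labels place tumor collection at 18 to 22 days and the methods of this mouse model at 16 to 20 days, and neither says whether WT mice received tamoxifen or whether a library came from 1 mouse or several. The cells were taken from the leukocyte layer of a Percoll gradient with a commercial kit, and nothing in the labels says that macrophages were removed by a sort.

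The libraries held 11823908 to 13943237 counts. The targeted gene Acvr1b did not separate the labels. It had 31.1 and 25.3 CPM in the libraries labelled WT against 27.1 and 36.0 CPM under the CD4/ALK4-KO label (log2 ratio 0.16, standard error (SE) 0.24, edgeR adjusted p = 0.66). Counts per gene show neither which exons nor which cells the reads came from, so they cannot decide whether the deletion took place. Every direction below is therefore between libraries as labelled. CPM is the usual depth-scaled count, with library sizes adjusted by the TMM method, and a log2 ratio is that of CD4/ALK4-KO over WT, with TMM unless another scaling is named. The labelled cell type was checked on 14 T cell genes. They summed to 471 to 515 CPM in the WT libraries and 2654 to 2765 CPM in the CD4/ALK4-KO libraries, and 14 of 14 were higher in the latter, with a median log2 ratio of 2.42. In the same libraries 12 general macrophage genes summed to 1636 to 2163 CPM (WT) and 1524 to 1771 CPM (CD4/ALK4-KO), and none of the 12 was at 0 in any library. The most abundant, Mrc1 (-0.42), C1qb (-0.46) and C1qa (-0.49), did not pass the threshold with 4 libraries. Cd163, a less abundant gene of this list, fell (log2 ratio -1.02, edgeR adjusted p = 0.0027), and was at -0.67 without WT replicate 1. Mrc1 passed at -0.46 without CD4/ALK4-KO replicate 1, and C1qb at -0.67 and C1qa at -0.62 without CD4/ALK4-KO replicate 2. In the WT libraries macrophage transcripts thus outweighed those of the T cell list. Fewer cells of a type and less RNA per cell cannot be told apart in such bulk libraries.

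Ear1 and Ear2 encode eosinophil-associated ribonucleases, secreted antimicrobial enzymes of alveolar macrophages and eosinophils, and their sequences are shown because these near-identical genes gave different results. Ear1 spans bases 43818765 to 43875517 of chromosome 14 (minus strand) and Ear2 bases 44102654 to 44103534 (plus strand) (GENCODE M21, GRCm38). The 250 bases before each start site (RefSeq, GRCm38.p6) were identical in 97.6% of 252 aligned positions, and the capitals mark the bases in which they differ or that lie beyond the end of the other window. The Ear1 window lies inside the GENCODE span of the gene, as the RefSeq start used is not the outermost GENCODE start.

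Ear1, chr14:43819640-43819889, minus strand: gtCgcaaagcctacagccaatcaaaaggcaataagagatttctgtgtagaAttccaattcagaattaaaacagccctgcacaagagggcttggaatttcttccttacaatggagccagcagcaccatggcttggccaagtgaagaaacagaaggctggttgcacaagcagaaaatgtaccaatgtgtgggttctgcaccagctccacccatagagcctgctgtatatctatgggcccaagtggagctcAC

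Ear2, chr14:44102404-44102653, plus strand: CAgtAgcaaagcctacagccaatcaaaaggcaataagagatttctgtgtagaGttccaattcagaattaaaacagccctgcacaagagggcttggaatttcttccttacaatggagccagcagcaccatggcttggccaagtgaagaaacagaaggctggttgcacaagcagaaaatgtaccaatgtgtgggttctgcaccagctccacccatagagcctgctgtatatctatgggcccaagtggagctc

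Their coding sequences of 465 and 468 bases were identical in 95.1% of positions, with 20 mismatches and a longest identical run of 96 bases. This run is longer than a read, as the reads were 75 bases long. Of all stretches of 75 bases of the Ear1 transcripts, 39.3% also occurred in transcripts of other genes (Ear2, Ear10, Ear-ps2 or Ear-ps9), and of the Ear2 transcript 23.4% did. The stretch of a read's length in which both genes differ most, within the coding sequence of the second exon, held 7 differences, shown in capitals.

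Ear1, coding bases 96 to 170, chr14:43819240-43819314, minus strand: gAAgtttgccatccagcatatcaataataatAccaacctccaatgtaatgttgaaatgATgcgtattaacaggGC

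Ear2, coding bases 96 to 170, chr14:44102982-44103056, plus strand: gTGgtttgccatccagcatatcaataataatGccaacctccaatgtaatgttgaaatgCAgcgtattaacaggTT

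Reads from such stretches tell the genes apart, whereas reads from the shared stretches do not, so the counts of both genes are uncertain. Chil3 shared 13% of its stretches of 75 bases with Chil4 or Gm6522, and Plet1 shared 6.35% with Plet1os, a gene annotated on the opposite strand, whose reads cannot be told apart from those of Plet1 because the library kit does not mark strand. The other 6 members shared none.

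All 10 members had counts in every library, and 9 of them passed the expression filter of edgeR. At an adjusted p under 0.05, 2 members were lower in the CD4/ALK4-KO libraries, Ear1 and Chil3, where 15.4% of the 13919 genes tested were lower. No member was higher, where 17.4% of all genes were (edgeR's quasi-likelihood test). At an unadjusted p under 0.05 this count was 1, Car4, and after adjustment it was 0 by DESeq2 and by edgeR's likelihood ratio test as well. The median log2 ratio of the 9 members was -0.22, against -0.01 over all genes tested, and the log2 ratios of 4 members were above 0 and those of 5 below it. Over all 10 members, the CPM of the groups did not overlap for 7: Marco, Chil3, Ear1 and Krt79 were lower and Car4, Cidec and Plet1 higher in both CD4/ALK4-KO libraries. Among all genes tested 34% lay lower and 32.7% higher without overlap, so such a separation was frequent with 2 libraries per label.

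**Figure D1:**
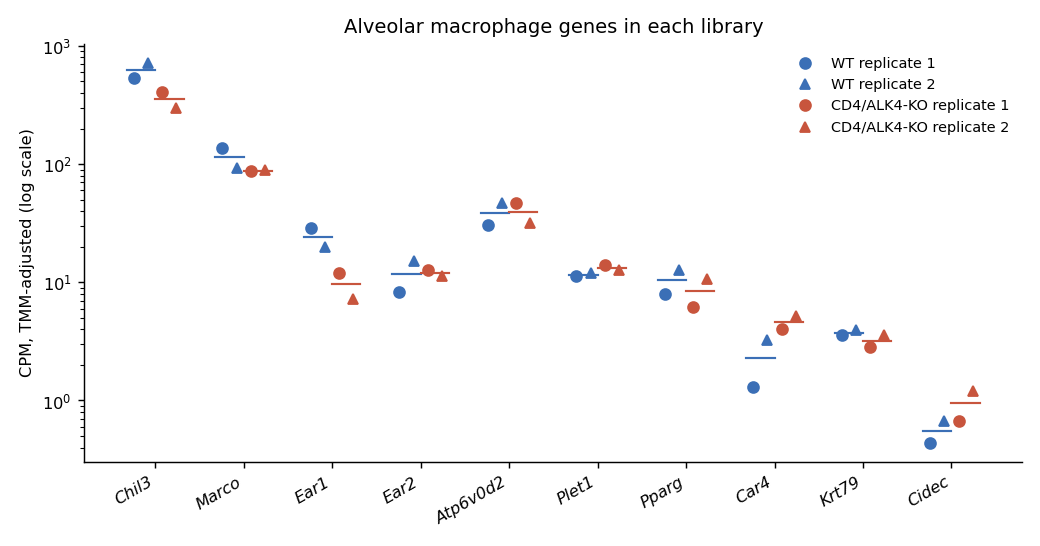
CPM (TMM-adjusted, log scale) of the 10 alveolar macrophage genes, ordered by level per kilobase, in each of the 2 WT (blue) and 2 CD4/ALK4-KO (red) libraries. Circles are replicate 1, triangles replicate 2 and horizontal lines the mean of each label. The 2 red points of Chil3 and of Ear1 lie below both blue points, whereas those of Ear2, Atp6v0d2 and Pparg overlap with the blue ones.

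Levels were compared between members as CPM per kilobase of exon. Chil3 was the most abundant, at 185 to 440 CPM per kilobase over the 4 libraries, apart from Marco at 45.7 to 70.4, which in turn was apart from Ear1 at 9.87 to 39.6. The ranges of Ear1, Ear2 (11.5 to 21.2) and Atp6v0d2 (11.3 to 17.4) overlapped between neighbours. Plet1 (5.73 to 7.21) stood apart on both sides, and Pparg (2.11 to 4.33), Car4 (0.668 to 2.64), Krt79 (0.601 to 0.824) and Cidec (0.236 to 0.655 CPM per kilobase) overlapped from one to the next. By mean CPM, Chil3 lay at percentile 98.0 and Marco at percentile 83.3 of the genes tested, and Car4 and Krt79 both at percentile 15.3.

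Of the secreted products, Chil3 (chromosome 3, 106147554 to 106167564), which encodes the chitinase-like lectin Ym1, had 538 and 717 CPM in the WT libraries and 405 and 301 CPM in the CD4/ALK4-KO libraries. Both WT values were above both CD4/ALK4-KO values, with means of 628 ± 127 and 353 ± 73.6 CPM (SD, n = 2). The log2 ratio was -0.83 (SE 0.23, edgeR adjusted p = 0.0075), a level 1.78-fold lower in the CD4/ALK4-KO libraries. Without WT replicate 2, the library with the highest value, it was -0.62 and no longer past the threshold (adjusted p = 0.24, 5.0e-24 to 0.24 over the alternatives). Chil3 is also made by monocytes and neutrophils. The monocyte list, which includes it, summed to 3480 and 3858 CPM (WT) and 3542 and 3256 CPM (CD4/ALK4-KO), and it moved in no single direction. Ly6c2 rose with a log2 ratio of 1.24 and Ccr2 with 0.63. F13a1 was at -0.57 (edgeR adjusted p = 0.055), Vcan at -0.49 and Fn1, the most abundant, at 0.09, none of these 3 past the threshold. Without WT replicate 1 neither Ly6c2 (0.92) nor Ccr2 (0.41) passed. Ccr2 passed neither without WT replicate 2 (0.87) nor without CD4/ALK4-KO replicate 1 (0.39). F13a1 (-0.83) and Vcan (-0.71) passed when CD4/ALK4-KO replicate 1 was left out. The 10 neutrophil genes summed to 981 and 1493 CPM (WT) and 1588 and 993 CPM (CD4/ALK4-KO), with S100a9 at 0.01, S100a8 at -0.35 and Retnlg at 0.26. S100a8 passed without CD4/ALK4-KO replicate 1 (-0.70) and Retnlg without CD4/ALK4-KO replicate 2 (0.59). The part of these cells in the change of Chil3 was not tested. Its close paralog Chil4, also known as Ym2, had 12 and 242 counts in the WT libraries and 2 in each CD4/ALK4-KO library, so that WT replicate 2 held nearly all of its reads, and its difference did not pass (adjusted p = 0.25, edgeR), although it did by DESeq2 (0.0079) and as each library other than WT replicate 2 was left out. Chil1, another chitinase-like gene, was at a log2 ratio of -0.34 (adjusted p = 0.32) and passed at -0.85 without CD4/ALK4-KO replicate 1, and the acidic chitinase Chia1 had 9 and 18 counts (WT) and 4 and 5 counts (CD4/ALK4-KO) and was not tested. With 7373 and 9705 counts (WT) and 4824 and 3718 counts (CD4/ALK4-KO), Chil3 made up 97.6% to 100% of the counts of this pair.

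The 250 bases before the start of Chil3 (RefSeq, GRCm38.p6) are shown because this member fell and because its window was the only one among the members to hold GGAAGT, the core of the sites of PU.1 and other ETS factors, here as ACTTCC on the other strand and in capitals.

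Chil3, chr3:106167565-106167814, minus strand: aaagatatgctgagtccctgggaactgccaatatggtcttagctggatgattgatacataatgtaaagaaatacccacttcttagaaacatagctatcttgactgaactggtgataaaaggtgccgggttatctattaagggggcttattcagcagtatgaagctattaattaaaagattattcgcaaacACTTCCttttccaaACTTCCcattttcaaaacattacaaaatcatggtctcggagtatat

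Motifs were searched on both strands in the 250 bases before 12 start sites of 9 members; Atp6v0d2 was not in the table. GGAAGT lay in 1 of the 12 windows, against 19.7% of 32851 windows of all genes. The letters AGGTCA, the core that nuclear receptors such as PPARγ read, lay in 3 of the 12 (at 2 starts of Pparg and at that of Plet1) against 14.0%, and CACGTG, the E-box read by Bhlhe40 and Bhlhe41, in none of the 12 against 6.02%. In 8 of the 12 windows none of these letters was found, among them those of Ear1 and Ear2.

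Ear1 had 28.9 and 19.8 CPM in the WT libraries and 12.1 and 7.21 CPM in the CD4/ALK4-KO libraries. Both CD4/ALK4-KO values lay below both WT values, and the log2 ratio was -1.34 (SE 0.30, edgeR adjusted p = 0.0017), or 2.52-fold lower, the largest fall among the members tested. Leaving out WT replicate 1, in which Ear1 was highest, gave -1.05 (adjusted p = 0.075, 8.7e-28 to 0.075 over the alternatives). Ear2 had 8.25 and 15.2 CPM in the WT libraries and 12.6 and 11.4 CPM in the CD4/ALK4-KO libraries, where both values lay between those of WT. Its log2 ratio was 0.03 (SE 0.31, adjusted p = 0.95), and was -0.03 with upper quartile scaling.

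Since both genes were counted in the same libraries, their ratio does not depend on the scaling. Ear1 made up 77.8% (exact 95% interval 73.9 to 81.3) of the 509 counts of the pair in WT replicate 1 and 56.5% (51.9 to 61.1) of 474 in WT replicate 2. In the CD4/ALK4-KO libraries it made up 49.0% (43.1 to 54.8) of 294 and 38.7% (32.4 to 45.3) of 230. The share was lower in both CD4/ALK4-KO libraries than in both WT libraries, although the intervals of WT replicate 2 and CD4/ALK4-KO replicate 1 overlapped and the WT libraries differed from each other by more than their intervals. These intervals cover counting error only, and the ratio was not tested, as an exact permutation test of 2 against 2 libraries cannot go below p = 0.33 and no other test of it was run. Of the other genes of this family in the counts, Ear3, Ear4, Ear7, Ear12 and Ear14 were at 0 in every library, Ear10 had 1 count in all, and Ear6, Rnase2a and Rnase2b had at most 18 counts in a library. The eosinophil list summed to 26.1 and 32.0 CPM (WT) and 23.9 and 42.7 CPM (CD4/ALK4-KO), and in it Ccr3 rose (50 and 69 counts in WT, 91 and 133 in CD4/ALK4-KO, log2 ratio 1.07), though not without WT replicate 1 (0.84), WT replicate 2 (1.33) or CD4/ALK4-KO replicate 2 (0.80). Of its other genes, Alox15 had 88 to 236 counts, Prg2 18 to 86 and Il5ra 13 to 43, none of them past the threshold with 4 libraries. Prg2 (-1.53) and Il5ra (1.68) passed without CD4/ALK4-KO replicate 1, and Alox15 (-1.13) without CD4/ALK4-KO replicate 2. Siglecf is described below, and the granule genes Prg3 and Epx had at most 5 and 2 counts in a library. The part of eosinophils in the values of Ear1 and Ear2 was not tested.

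**Figure D2:**
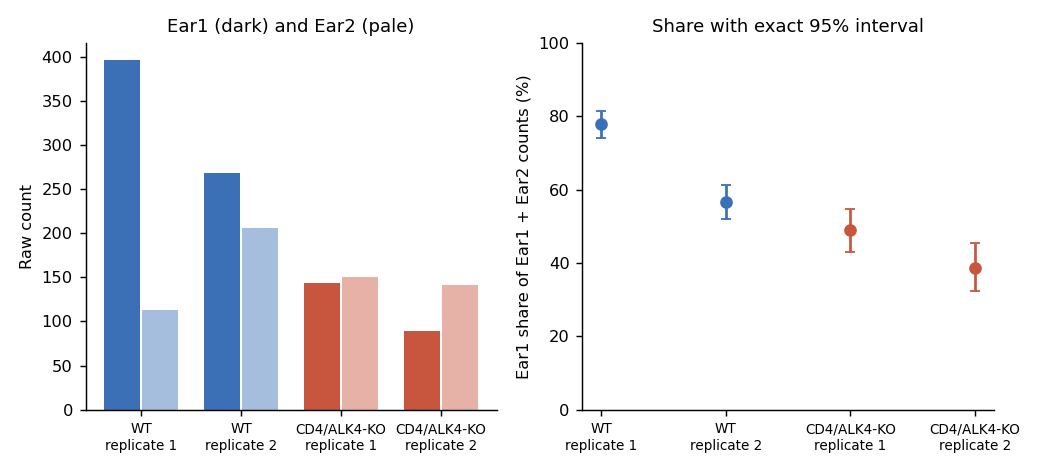
Left, raw counts of Ear1 (dark bars) and Ear2 (pale bars) in the 2 WT (blue) and 2 CD4/ALK4-KO (red) libraries. Right, the share of Ear1 in the counts of both genes in percent, with exact 95% binomial intervals, which runs from 77.8% in WT replicate 1 to 38.7% in CD4/ALK4-KO replicate 2.

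Of the surface proteins, Marco (chromosome 1, 120474538 to 120505024), the scavenger receptor by which alveolar macrophages bind particles and bacteria, had 136 and 92.3 CPM in the WT libraries and 88.0 and 88.5 CPM in the CD4/ALK4-KO libraries. WT replicate 1 stood above the rest, and the other 3 libraries lay close together. The log2 ratio of -0.37 (SE 0.22, edgeR adjusted p = 0.22) was not past the threshold and was -0.07 without WT replicate 1. Among 4 other scavenger receptor genes Scara3, a gene not specific to macrophages, fell (log2 ratio -1.04, adjusted p = 0.00087), while Msr1, the class A receptor of macrophages at large, was at -0.13, Colec12 at -0.50 and Scara5 at -0.72, none of them past the threshold, which Colec12 passed without CD4/ALK4-KO replicate 1 (-0.61).

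Car4 (chromosome 11, 84957786 to 84966044), a membrane-bound carbonic anhydrase, had 18 and 44 counts in the WT libraries and 48 and 64 in the CD4/ALK4-KO libraries, or 1.31 and 3.25 against 4.03 and 5.18 CPM. The CD4/ALK4-KO values were the higher, but WT replicate 2 was nearer to them than to WT replicate 1. The log2 ratio of 1.01 (SE 0.49, adjusted p = 0.12, edgeR) did not pass, and it ran from 0.49 without WT replicate 1 to 1.80 without WT replicate 2. Without CD4/ALK4-KO replicate 1 it was 1.21 and past the threshold. Scaled to T cell receptor genes, as described below, Car4 turned direction and was at -1.41 (edgeR adjusted p = 0.0085). The endothelium list, whose cells also carry Car4, summed to 176 and 182 CPM (WT) and 186 and 204 CPM (CD4/ALK4-KO), none of its 10 genes was at 0 in any library, Pecam1 (1.72) rose, Apln (-1.52) fell and Ednrb was at -0.48, and its part in the value of Car4 was not tested. Among all genes tested 17.4% were higher and 15.4% lower. Of 10 other carbonic anhydrase genes tested, Car12 (log2 ratio 1.36) and Car15 (2.17) rose and Car9 (-1.36), a gene induced by hypoxia, fell. Each lost its call when a WT library was left out, Car12 (1.07) without WT replicate 2, Car9 (-1.23) without WT replicate 1 and Car15 without either (1.94 without WT replicate 1). The others tested ran from -0.87 for Car2, the most abundant by count, and -0.53 for Car13 to 0.83 for Car5b and 1.07 for Car11, with Car1 at -0.46, Car6 at -0.20 and Car8 at -0.02, none of them past the threshold with 4 libraries. Single libraries weighed on several of these. Car11 ran from 0.34 to 2.58 and passed with either replicate 2 left out (2.58 for that of WT, 1.53 for that of CD4/ALK4-KO). Car2 ran from -1.76 to -0.32 and passed with either replicate 1 left out (-1.15 and -1.76). Car5b passed without CD4/ALK4-KO replicate 2. Car3 and Car7 had at most 15 counts in a library.

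Plet1 (chromosome 9, 50494525 to 50505482), a GPI-anchored surface protein, was the most even member, with 11.2 and 11.9 CPM in the WT libraries and 14.0 and 12.6 CPM in the CD4/ALK4-KO libraries. The groups did not overlap, yet the log2 ratio was 0.21 (SE 0.28, adjusted p = 0.62), and between 0.16 and 0.28 whichever library was left out.

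The regulator of the programme, Pparg (chromosome 6, 115360951 to 115490399), had 8.03 and 12.8 CPM in the WT libraries and 6.22 and 10.6 CPM in the CD4/ALK4-KO libraries. The groups overlapped, as the libraries of each label differed from each other by more than the labels did. The log2 ratio was -0.31 (SE 0.34, edgeR adjusted p = 0.53), and was 0.06 without WT replicate 2 and also without CD4/ALK4-KO replicate 1. Its relative Ppard, a widely expressed nuclear receptor, fell with a log2 ratio of -1.18 (SE 0.31, adjusted p = 0.0057), and was at -1.10 without WT replicate 1 (adjusted p = 0.061), and Ppara had at most 5 counts in a library.

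Of the metabolic and structural members, Atp6v0d2 (chromosome 4, 19876841 to 19922605), a subunit of the proton pump that acidifies lysosomes, had 30.8 and 46.8 CPM in the WT libraries and 47.2 and 31.5 CPM in the CD4/ALK4-KO libraries. Each label held 1 high and 1 low library, and the means of 38.8 ± 11.3 and 39.4 ± 11.1 CPM (SD, n = 2) gave a log2 ratio of 0.02 (SE 0.25, adjusted p = 0.96). Its direction flipped with upper quartile scaling, at -0.05. The ubiquitous form of this subunit, Atp6v0d1, was at 0.14. None of 10 V-ATPase genes passed edgeR's test with 4 libraries (5 above and 5 below 0, with 1 at an unadjusted p under 0.05, Atp6v0a1 at 0.55). The 3 most abundant of them were Atp6v1a at -0.33, Atp6ap1 at 0.02 and Atp6v1b2 at 0.17. Single libraries weighed on some of these genes. Without CD4/ALK4-KO replicate 1, Atp6v1a was at -0.54, Atp6v1h at -0.51 and Atp6v0a1 at 0.86. Of 6 osteoclast genes, a cell that also makes Atp6v0d2, Acp5 rose (1.21), Ctsk was at 0.05 and Mmp9 at 0.49, and the calcitonin receptor gene Calcr had 0 counts in 3 of the 4 libraries.

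Cidec (chromosome 6, 113424634 to 113435760), which coats and fuses lipid droplets, had 6 and 9 counts in the WT libraries and 8 and 15 in the CD4/ALK4-KO libraries, too few to pass the filter. With no filter its log2 ratio was 0.76 (edgeR adjusted p = 0.62), so that no difference was detectable at this depth. Of the 7 genes of the adipocyte list, whose cells express Cidec and Pparg, Fabp4, which alveolar macrophages also express, had 877 and 994 counts in WT and 398 and 364 in CD4/ALK4-KO and fell (-1.13). Cfd had at most 16 counts in a library, Retn 8, Adipoq, Plin1 and Plin4 at most 6 and Lep none, and the related droplet gene Cideb had at most 6. Krt79 (chromosome 15, 101929332 to 101940324), a type II keratin, had 49 and 53 counts in the WT libraries and 34 and 44 in the CD4/ALK4-KO libraries, or 3.58 and 3.92 against 2.86 and 3.56 CPM. The WT values were slightly the higher, but the log2 ratio of -0.22 (SE 0.44, adjusted p = 0.74) did not pass. The keratins of simple epithelia, Krt8 (log2 ratio -1.09) and Krt18 (-1.12), fell, as did Krt7 (-0.71) and Krt14 (-1.06), which without WT replicate 1 were at -0.19 and -0.68 and not past the threshold. Krt19, also a listed alveolar macrophage gene, was at -0.36 (adjusted p = 0.21).

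**Figure D3:**
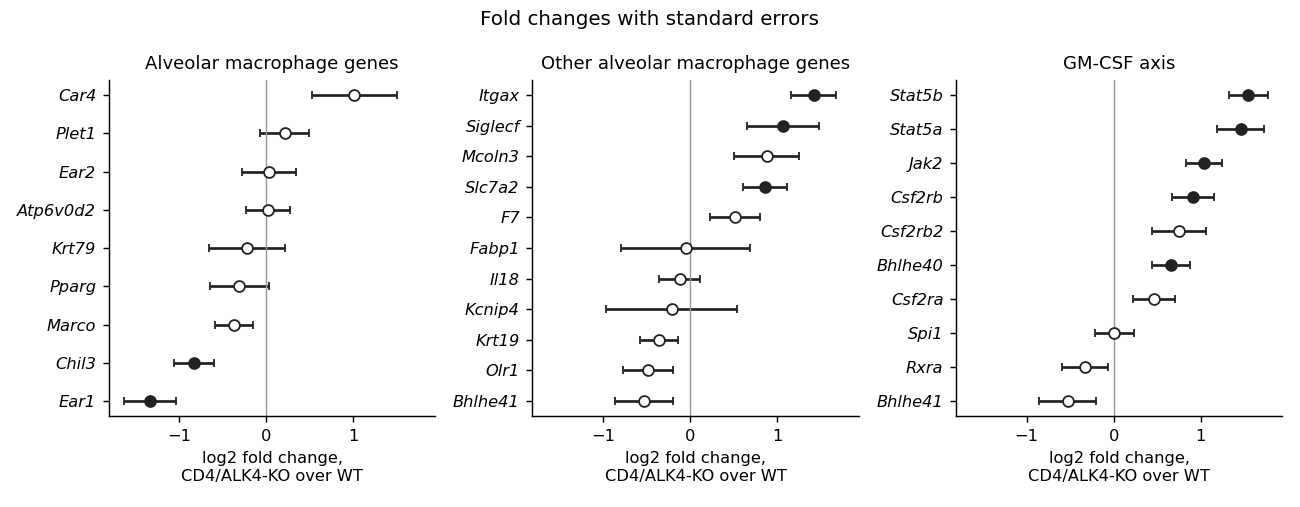
Log2 ratios (CD4/ALK4-KO over WT) with SEs from edgeR for the 9 tested members, 11 other alveolar macrophage genes and 10 tested genes of the GM-CSF axis. Filled points had an adjusted p under 0.05: Ear1 and Chil3 among the members, below 0, and 3 and 5 genes in the other panels, above 0.

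Of 11 other genes associated with alveolar macrophages, 3 rose and none fell (edgeR), against 17.4% and 15.4% of all genes tested. At an unadjusted p under 0.05 none fell either, and the median log2 ratio was -0.05. This list does not hold Fabp4, which alveolar macrophages also express and which fell, as described above. Itgax, which encodes CD11c, had 22.0 and 37.1 CPM in the WT libraries and 64.4 and 94.4 CPM in the CD4/ALK4-KO libraries, a log2 ratio of 1.42 (SE 0.26, adjusted p = 0.00024). Slc7a2, a transporter of cationic amino acids, rose with 0.86 (adjusted p = 0.011), and Siglecf, a lectin of alveolar macrophages and eosinophils, with 1.07 (adjusted p = 0.047), from 42 and 38 counts to 59 and 91. The calls of Siglecf and Slc7a2 were each lost when a library was left out. Siglecf was then at 1.12, 1.0 and 0.75 without WT replicate 1, WT replicate 2 and CD4/ALK4-KO replicate 2. Slc7a2 was at 0.65 and 0.47 without WT replicate 1 and CD4/ALK4-KO replicate 1. With all 4 libraries, the call of Siglecf was also lost by DESeq2's Wald test (adjusted p = 0.082). It was lost with upper quartile scaling (edgeR adjusted p = 0.069) and with the replicate block (edgeR adjusted p = 0.11) as well. CD11c is also carried by dendritic cells, and 4 of 7 dendritic cell genes rose (Flt3, Cd209a, Ccr7 and Siglech), while Clec9a fell (-0.73, and not past the threshold without WT replicate 1, WT replicate 2 or CD4/ALK4-KO replicate 2, from -0.79 to -0.57). That list summed to 105 and 112 CPM (WT) and 267 and 232 CPM (CD4/ALK4-KO), and its part in the rise of Itgax was not tested. Olr1, an oxidized lipoprotein receptor, was at -0.48, the repressor Bhlhe41 at -0.53, the cytokine Il18 at -0.12, the coagulation factor F7 at 0.52 and the channel Mcoln3 at 0.88, none of them past the threshold with 4 libraries. Olr1 passed without CD4/ALK4-KO replicate 1 (-0.81) and Mcoln3 without CD4/ALK4-KO replicate 2 (0.98), and Fabp1 and Kcnip4 had at most 13 counts in a library.

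In the GM-CSF axis, 5 of 10 genes tested rose and none fell (edgeR), against 17.4% and 15.4% of all genes tested. At an unadjusted p under 0.05 none fell either, and the median log2 ratio was 0.71. The ligand Csf2 had 4 and 5 counts in the WT libraries and 16 and 5 in the CD4/ALK4-KO libraries and was not tested. Of the receptor chains, the common β chain Csf2rb had 39.8 and 33.6 CPM in the WT libraries and 53.1 and 84.9 CPM in the CD4/ALK4-KO libraries. It rose with a log2 ratio of 0.91 (SE 0.24, adjusted p = 0.0058), but was at 0.53 without CD4/ALK4-KO replicate 2 (adjusted p = 0.064) and at 0.78 without WT replicate 2 (adjusted p = 0.12, 2.0e-07 to 0.12 over the alternatives), whereas the specific α chain Csf2ra (0.46) and Csf2rb2 (0.75) did not pass. Without CD4/ALK4-KO replicate 1 both passed (0.60 and 1.21), and without CD4/ALK4-KO replicate 2 Csf2rb2 was at 0.14. Scaled to macrophage genes, as described below, Csf2rb2 passed (0.93, edgeR adjusted p = 0.014). Scaled to T cell receptor genes, it turned direction and was at -1.63 (edgeR adjusted p = 3.2e-07). The signal transducers Jak2 (1.04), Stat5a (1.46) and Stat5b (1.55) rose. T cells also use these transducers, and the T cell list rose with a median of 2.42. Of the transcription factors, Spi1, which encodes PU.1 and marks myeloid and B cells, had 43.6, 42.7, 42.4 and 44.6 CPM in the 4 libraries, a log2 ratio of 0.01 (SE 0.22, adjusted p = 0.97), Bhlhe40 rose with 0.66 (adjusted p = 0.024, but 0.26, 0.16 and 0.15 without WT replicate 1, WT replicate 2 and CD4/ALK4-KO replicate 2), and Rxra, the partner of PPARγ, was at -0.33 (adjusted p = 0.36).

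Of 14 genes of lipid handling, a main metabolic task of alveolar macrophages, some are targets of PPARγ. Among the 14, 4 rose and 5 fell (against 17.4% and 15.4% of all genes tested), with a median log2 ratio of 0.10. Those that fell were the fatty acid carriers Fabp4 (-1.13) and Fabp5 (-0.70), the fatty acid receptor Cd36 (-0.68), the lipid droplet coat Plin2 (-0.75) and Angptl4 (-0.97), an inhibitor of lipoprotein lipase. Those that rose were the cholesterol exporters Abca1 (1.06) and Abcg1 (1.80), the lysosomal cholesterol transporter Npc1 (0.74) and the lipoprotein lipase gene Lpl (0.62, adjusted p = 0.045, edgeR). Fabp4 and Abcg1 passed whichever library was left out. The other 7 did not pass without WT replicate 1 (Fabp5 at -0.87, Cd36 at -0.76, Plin2 at -0.57, Angptl4 at -0.70, Abca1 at 0.94, Npc1 at 0.73 and Lpl at 0.30), and Fabp5 (-0.53), Cd36 (-0.61) and Npc1 (0.73) not without WT replicate 2 either. Named for passing the test, these 9 genes were chosen after their values were seen. Npc2, the most abundant of the list, was at -0.07.

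**Figure D4:**
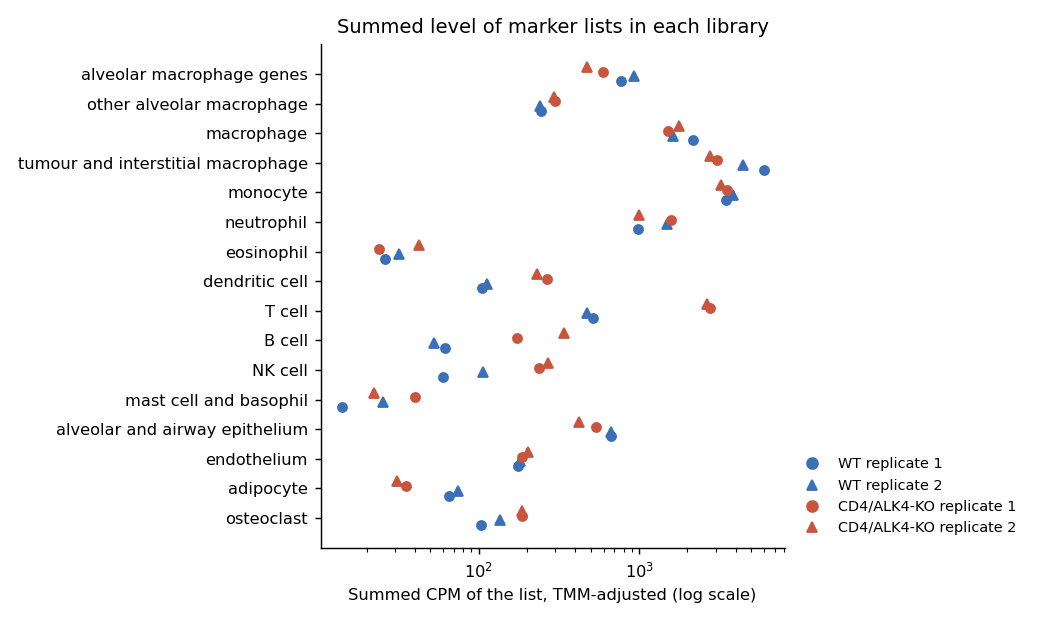
Summed CPM (TMM-adjusted, log scale) of 16 marker lists in each of the 2 WT (blue) and 2 CD4/ALK4-KO (red) libraries. The T cell list lies at 471 to 515 CPM in WT and 2654 to 2765 CPM in CD4/ALK4-KO, whereas the 10 alveolar macrophage genes lie at 766 and 924 CPM in WT and 593 and 473 CPM in CD4/ALK4-KO.

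Summed over the 10 members, the libraries held 766 and 924 CPM (WT) and 593 and 473 CPM (CD4/ALK4-KO), a ratio of 0.631. Chil3 made up 63.7% to 77.6% of these sums, and without it they were 228 and 207 CPM (WT) and 188 and 172 CPM (CD4/ALK4-KO), a ratio of 0.827. In the same libraries all 6 B cell genes and all 5 NK cell genes rose along with the T cell genes, with medians of 2.47 and 2.15 (for example Cd79b at 1.69, Ms4a1 at 2.16, Gzma at 1.42, Klrb1c at 1.76 and Ncr1 at 2.15, beside Cd3g at 2.16, Lck at 2.84 and Cd4 at 2.62). The list of tumour and interstitial macrophages summed to 5966 and 4428 CPM (WT) and 3057 and 2768 CPM (CD4/ALK4-KO), with Spp1 (-1.46), Folr2 (-0.92) and Pf4 (-1.23) lower and Cx3cr1 (0.86) higher among 10 genes, while Arg1 (-0.44) and Apoe (-0.41), the most abundant after Spp1, did not pass. Without WT replicate 1, Folr2 (-0.59) and Cx3cr1 (0.52) did not pass, Arg1 passed without CD4/ALK4-KO replicate 1 (-0.60) and Apoe without CD4/ALK4-KO replicate 2 (-0.51). Of 12 genes of alveolar and airway epithelium, 4 fell and 3 rose (against 15.4% and 17.4% of all genes tested). Scgb1a1 (-0.73), Sftpc (-0.82) and Hopx (0.21) were the most abundant. Neither Scgb1a1 nor Sftpc passed when either WT library was left out, nor Scgb1a1 without CD4/ALK4-KO replicate 2 (-0.35). Their sums were 671 CPM in each WT library and 538 and 420 CPM in the CD4/ALK4-KO libraries.

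To set the members against the macrophage content of their own library, each was divided by the summed CPM of 9 general macrophage genes, among them Adgre1, Cd68, C1qa and Mrc1. Marco stood at 7.01% and 6.50% of this sum in the WT libraries and at 6.86% and 6.14% in the CD4/ALK4-KO libraries, and overlapped between the labels. Ear1 stood at 1.49% and 1.40% in WT and at 0.944% and 0.50% in CD4/ALK4-KO, lower without overlap. Car4, at 0.0679% and 0.229% against 0.315% and 0.36%, Cidec, at 0.0226% and 0.0469% against 0.0524% and 0.0843%, and Plet1, at 0.577% and 0.839% against 1.09% and 0.877%, were higher without overlap. Chil3, at 27.8% and 50.6% in WT and 31.6% and 20.9% in CD4/ALK4-KO, and Ear2, at 0.426% and 1.07% against 0.983% and 0.793%, overlapped. So did Pparg, Krt79 and Atp6v0d2. Cidec had too few counts to pass the filter. With TMM, 34% of all genes tested lay lower and 32.7% higher without overlap, and their share on the present measure was not computed.

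Scaled to the geometric mean of the counts of these 9 genes, rather than to their sum, in place of TMM, all log2 ratios moved by a median of 0.18. There, 1 member was lower, Ear1 (log2 ratio -1.11, edgeR adjusted p = 0.0032), where 997 of the genes tested (7.16%) were lower. No member was higher, where 2604 (18.7%) were, and Chil3 was at -0.66 (adjusted p = 0.16). Scaled instead to 7 genes of T cell receptor signalling, which moved all genes by a median of -2.39, all 9 members tested were lower, as were 93.6% of the genes tested, and the genes above that rose with TMM, such as Itgax (-1.0), Csf2rb (-1.47) and Stat5b (-0.85), were below 0.

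**Figure D5:**
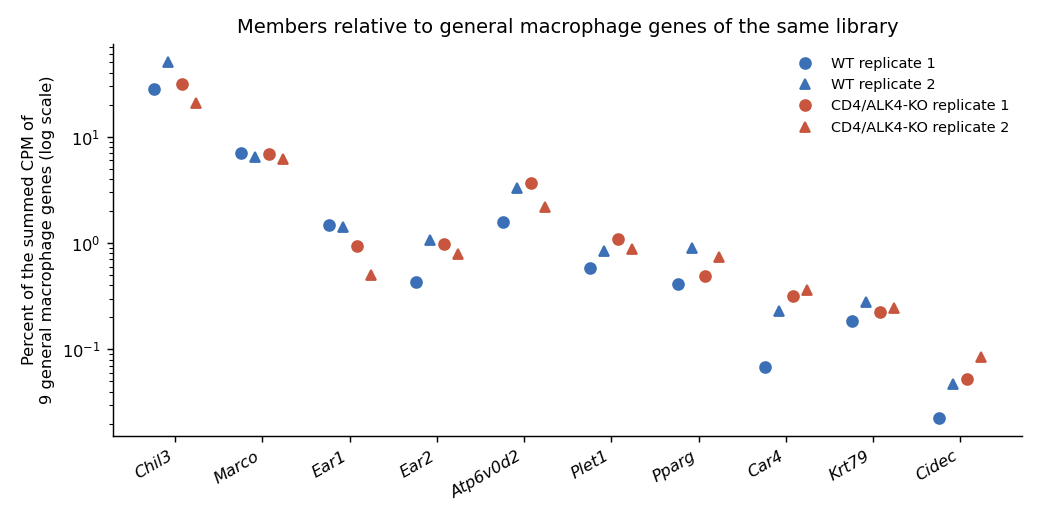
Each member as a percentage of the summed CPM of 9 general macrophage genes of the same library (log scale), in 2 WT (blue) and 2 CD4/ALK4-KO (red) libraries. Marco stays between 6.14% and 7.01% in the 4 libraries, and Ear1 falls from 1.40% and 1.49% in WT to 0.944% and 0.50% in CD4/ALK4-KO.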

How the data were processed

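CD4+ T cells from lungs with LLC-OVA tumors gave 4 RNA-Seq libraries, 2 per label. The authors deposited raw counts per gene symbol for each library. The submitters' processing notes name FastQC, HISAT2, HTSeq and DESeq2 and the mouse build mm10 (the GRCm38 assembly). Libraries came from the TruSeq RNA kit, which does not mark strand, as single-end reads of 75 bases, counted with the intersection-nonempty mode of htseq-count. Versions, the annotation and the handling of reads that map to several places were not given in the sources used here. No count column lacked a sample. The series describes biological replicates, and p-values measure only the spread between these libraries. Replicates were distinct (chi-square per degree of freedom between WT libraries 16.0, between CD4/ALK4-KO libraries 28.7).

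Counts were tested for label in R 4.3.3 with edgeR 4.0.16 (filterByExpr, TMM, robust quasi-likelihood fit, limma 3.58.1) with Benjamini-Hochberg adjustment over the 13919 genes tested of 25239, and calls were made at an adjusted p under 0.05. The code was tested on simulated data. The common dispersion was 0.0357, and the depth of 11823908 to 13943237 counts limits precision for members with few counts. Alternatives were DESeq2 1.42.0 (size factors or Wald test), the likelihood ratio test, upper quartile scaling, scaling to 7 T cell receptor genes or 9 macrophage genes, no filter, at least 10 counts in every library, a replicate block and each library left out in turn. Scaling to genes used the geometric mean of their counts. A crossed replicate block, which joined libraries of unlike number, was added after the data were seen. Same-numbered libraries did not deviate together (correlation -0.214), so the numbers were not taken as pairs.

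Gene models and transcript sequences were from GENCODE M21 (GRCm38), and windows before start sites from RefSeq (GRCm38.p6), with 9 of 10 members matched. The members and all gene lists were chosen with earlier results of these data known. Genes were named by rule: the members, family genes with at least 10 counts in all, the tested genes of the other alveolar macrophage and GM-CSF lists, the 3 most abundant genes of other lists and Acvr1b. Of the mast cell and basophil list these were Cpa3 (log2 ratio 0.49, 0.81 and past the threshold without CD4/ALK4-KO replicate 2), Mcpt4 (1.78, the 1 of 5 tested that rose, 1.47 and not past it without WT replicate 1) and Mcpt8 (0.09). Other genes named in the text were chosen after their values were seen. No list was tested as a set. Not every gene of the lists is reported here by name. Flow cytometry and other assays of the study were not analysed here.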

Additional observations from a re-analysis of the deposited data

How the results depend on the processing

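Of 384 results for 29 genes under at most 14 alternatives, 313 kept their direction and side of the threshold. A further 18 lost a call, 18 gained one and 35 turned direction. The crossed replicate block, chosen after seeing the data, was counted among these results for the members only. The count of members lower (2) was 9 with scaling to T cell receptor genes, 1 with scaling to macrophage genes and 1 to 2 as each library was left out, and that of members higher (0) was 0 to 1 as each library was left out. The number of all genes higher (2422) was 25 with scaling to T cell receptor genes and 1103 to 2923 as each library was left out. That of all genes lower (2140) was 13022 with scaling to T cell receptor genes, 997 with scaling to macrophage genes and 754 to 2618 as each library was left out. The ratio of the summed members (0.631) was 0.827 without Chil3. Apart from the scalings, whose construction sets the shift of all genes, the cause was not tested.

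With the replicate block, 1768 genes were higher and 1444 lower, and 2 members lower, Chil3 at -0.83 and Ear1 at -1.35. With the crossed replicate block, chosen after seeing the data, 3118 were higher and 3037 lower.

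With scaling to T cell receptor genes, log2 fold changes that turned below 0 were Atp6v0d2 -2.40, Bhlhe40 -1.73, Car4 -1.41, Csf2ra -1.92, Csf2rb -1.47, Csf2rb2 -1.63, Ear2 -2.39, F7 -1.89, Itgax -1.0, Jak2 -1.35, Mcoln3 -1.53, Plet1 -2.18, Siglecf -1.31, Slc7a2 -1.55, Spi1 -2.38, Stat5a -0.91 and Stat5b -0.85. Upper quartile scaling turned Atp6v0d2 (-0.05), Ear2 (-0.03) and Spi1 (-0.05), and scaling to macrophage genes turned Fabp1 (0.13) and Il18 (0.07). As each library was left out, Atp6v0d2 ran from -0.27 to 0.34, Ear2 from -0.35 to 0.53, Fabp1 from -0.63 to 0.38, Il18 from -0.35 to 0.09, Kcnip4 from -1.25 to 0.41, Pparg from -0.75 to 0.06, Rxra from -0.61 to 0.00 and Spi1 from -0.03 to 0.08. A library left alone in its group was assumed to vary like the other group. With 6 to 64 counts per library, Cidec, Car4 and Krt79 were limited by depth.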
